A study of Homo sapiens with 12 samples.

Results

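The JUN family of AP-1 consists of the genes JUN, JUNB and JUND, and all 3 were found among the 19901 genes of the count table by symbol, matched through their Ensembl identifiers. All 3 were also among the 13093 genes with enough counts to be tested. The RNA-Seq libraries came from HCT116 KAP1_dTAG cells. HCT116 is a line from a human colorectal carcinoma, and in the clone used both alleles of TRIM28, the gene for the transcriptional regulator KAP1, carry a C-terminal FKBP12 F36V degron and an HA tag. The ligand dTAG-13 bridges the tagged protein to the Cereblon ubiquitin ligase, so that KAP1 is degraded while its gene stays in place. Cells were starved of serum for 48 h, received dTAG or the solvent DMSO for the final 8 h, and were then collected without serum or after 30 min of serum. The 4 groups of 3 libraries are named by treatment and minutes of serum: the controls are DMSO-S0 and DMSO-S30, and the depleted cells are dTAG-S0 and dTAG-S30. Every group, the DMSO controls included, carried the tag and came from 1 sorted clone, so an effect of KAP1 loss and an effect of the ligand itself cannot be told apart here.

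JUN, JUNB and JUND are basic leucine zipper proteins that bind DNA as dimers, with one another or with a FOS or ATF protein, and such dimers are the transcription factor AP-1. JUN and JUNB are immediate early genes, whose transcription growth factors switch on within minutes without new protein synthesis, whereas JUND is known for a steadier level in resting cells. JUN protein is activated by the kinases of the JNK cascade and can act on its own promoter, and JUNB and JUND can oppose it in growth control. The comparisons asked how the transcript levels of the family respond to serum, and whether that response differs after KAP1 depletion.

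Each member is a compact gene read from a single exon in its main transcript (GENCODE v44, hg38), so its counts hold no intron. JUN (ENSG00000177606.6) lies on chr1:58780788-58784327, minus strand, in the table, and its coding sequence fills 993 bases of a 3257-base transcript of 56.1% GC. JUNB (ENSG00000171223.5) lies on chr19:12791496-12793315, plus strand, with 1041 coding bases in 1830 (64.9% GC). JUND (ENSG00000130522.5) lies on chr19:18279760-18281622, minus strand, with 1041 coding bases in 1929 (69.9% GC). The rest of each exon is untranslated, and the table's model of JUN reaches past the annotated start into 58 bases shared with the long non-coding RNA ENSG00000290013 on the same strand.

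To compare what the promoters hold, the 250 bases before each RefSeq start (GRCh38.p14) are shown, and a link to the transcript levels was not tested. They are chr1:58784048-58784297 for JUN, chr19:12791236-12791485 for JUNB and chr19:18281623-18281872 for JUND, each written 5′ to 3′ on the gene's strand. Capitals mark the motifs searched on both strands, with overlaps allowed. These were the AP-1 site in the form TGACTCA, the cAMP response element (CRE), whose letters are TGACGTCA, and a variant CRE with the letters TGACATCA. The others were the promoter motifs CCAAT and, near the start of many genes, TATAA, as well as the GC box with the letters GGGCGG and the MEF2 and CArG consensus sequences.
JUN: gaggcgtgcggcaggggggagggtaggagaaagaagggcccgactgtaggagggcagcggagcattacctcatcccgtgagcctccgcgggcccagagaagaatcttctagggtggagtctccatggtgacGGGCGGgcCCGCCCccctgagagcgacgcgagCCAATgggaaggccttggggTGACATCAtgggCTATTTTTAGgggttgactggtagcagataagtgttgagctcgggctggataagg
JUNB: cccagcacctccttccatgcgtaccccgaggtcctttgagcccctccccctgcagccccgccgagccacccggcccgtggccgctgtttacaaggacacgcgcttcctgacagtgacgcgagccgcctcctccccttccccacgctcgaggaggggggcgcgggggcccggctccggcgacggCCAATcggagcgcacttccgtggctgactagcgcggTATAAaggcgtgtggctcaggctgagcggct
JUND: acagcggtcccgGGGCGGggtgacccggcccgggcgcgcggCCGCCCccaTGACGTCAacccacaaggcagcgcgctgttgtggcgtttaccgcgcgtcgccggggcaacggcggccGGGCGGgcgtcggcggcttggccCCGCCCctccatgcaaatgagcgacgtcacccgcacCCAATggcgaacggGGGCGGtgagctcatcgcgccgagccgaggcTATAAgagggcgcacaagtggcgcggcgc
The JUN window held the variant CRE 67 bases and a MEF2 consensus 55 bases before the start, which 2.37% and 2.8% of 35116 promoter windows of the same length held. The JUND window held the CRE itself, 200 bases before the start, a motif found in 1.65% of all windows. CCAAT was the one motif present in all 3 windows, at 87, 67 and 74 bases before the start of JUN, JUNB and JUND, and it occurred in 32.0% of all windows. TATAA stood 31 and 29 bases before the starts of JUNB and JUND (18.9% of all windows), and no match to these letters was found in JUN. The GC box occurred 2 times in JUN and 5 times in JUND, and was in 42.6% of all windows. Neither TGACTCA, the form of the AP-1 site searched and found in 4.20% of all windows, nor the CArG box, the binding site of SRF found in 1.16%, was matched in any of the 3. Other sequences that AP-1 dimers may bind are not covered by TGACTCA, so these windows are not shown to lack AP-1 sites. GC content was 62.0% in JUN, 70.8% in JUNB and 74.8% in JUND, against a median of 58.0% over all windows. These matches describe letters in a window, and binding was not measured.

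**Figure D1:**
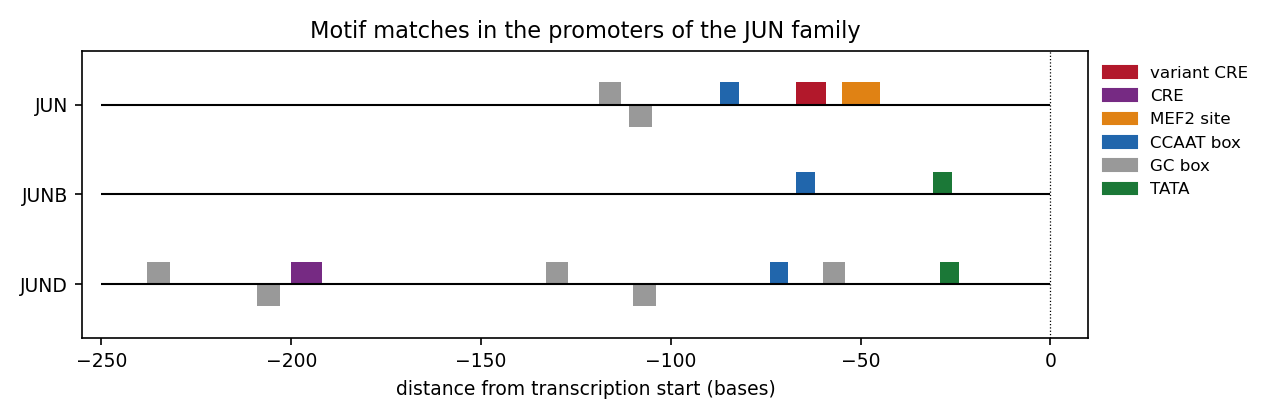
Motif matches in the 250 bases before the start of JUN, JUNB and JUND; the horizontal axis is the distance from the transcription start in bases, boxes above a line are on the gene's strand and boxes below it on the other strand. The variant CRE and the MEF2 consensus of JUN lie next to each other, 67 and 55 bases before the start, and JUND is the window with the most GC boxes, 5.

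Library totals ran from 20537682 to 26278707 counts, of which the ERCC spike-ins, synthetic RNAs added to each sample in a fixed amount, took 7.97% to 9.37%. The epithelial markers EPCAM, CDH1, KRT8, KRT18 and KRT19 were all present, at 79.1 CPM or more in every library, where CPM are read counts scaled, by upper quartile, to a library of 1000000. PTPRC, PECAM1, COL3A1 and DCN, which mark blood, endothelial and fibroblast cells, reached at most 35, 10, 7 and 2 counts in any library, whereas the collagen gene COL1A1 was present at 11.8 to 85.5 CPM. Without serum, TRIM28 itself was at 96.9 ± 4.74 CPM with DMSO and 92.6 ± 6.27 with dTAG (mean ± SD of 3 libraries), and with serum it was at 115 ± 5.71 and 112 ± 7.87. Its dTAG log2 fold changes were -0.06 ± 0.07 (SE) without serum and -0.04 ± 0.07 with serum (edgeR adjusted p of 0.789 and 0.888), and because the degron acts on the protein this does not check the depletion.

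As a ratio, though not in CPM, JUN changed the most of the 3 genes, both with serum and with dTAG in its absence. It stood at 9.70, 9.95 and 9.86 CPM in DMSO-S0 (replicates 1 to 3), which are 183, 217 and 201 counts, and at 185, 173 and 200.4 CPM in DMSO-S30, which are 3775, 3927 and 4150 counts. In dTAG-S0 the level was 15.4, 14.9 and 17.1 CPM (327, 343 and 411 counts), and in dTAG-S30 it was 149.6, 150.6 and 176.9 CPM (3333, 3367 and 3904 counts). Both serum groups therefore lie far above both groups without serum, every dTAG-S0 library lies above every DMSO-S0 library, and the groups with serum overlap through dTAG-S30 replicate 3. In bulk RNA, a change in each cell and a change in the number of responding cells cannot be told apart.

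JUNB was at 34.9, 36.4 and 31.6 CPM in DMSO-S0 (658, 794 and 644 counts) and at 287.6, 264.8 and 308.9 CPM in DMSO-S30 (5859, 6011 and 6396 counts). It was at 45.2, 36.8 and 40.9 CPM in dTAG-S0 (961, 849 and 983 counts) and at 227, 249.5 and 276 CPM in dTAG-S30 (5064, 5580 and 6084 counts). The lowest dTAG-S0 library, replicate 2, exceeded the highest DMSO-S0 library by less than 1 CPM, and with serum the groups overlapped. JUNB lies inside the gene model of HOOK2 (chr19:12763003-12872740, minus strand), which held 1069 to 1434 counts per library and had log2 fold changes of 0.06 and 0.13 with serum in DMSO and in dTAG (edgeR adjusted p of 0.577 and 0.166). All 436 genes of the table that lie wholly inside a larger gene on the same strand were listed at 0 in every library, among them PRDX2 inside HOOK2. Of the 608 that lie inside a gene on the other strand only, as JUNB does, 111 (18.3%) were at 0, so reads of the 2 strands were kept apart in this table.

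JUND had the smallest rise of the 3 with serum. It stood at 66.1, 63.4 and 62.0 CPM in DMSO-S0 (1247, 1382 and 1264 counts) and at 137, 128 and 138 CPM in DMSO-S30 (2800, 2906 and 2856 counts). The dTAG-S0 libraries gave 85.9, 68.0 and 86.3 CPM (1827, 1570 and 2073 counts) and the dTAG-S30 libraries 127, 145 and 157 CPM (2834, 3233 and 3475 counts). Replicate 2 of dTAG-S0 stood closer to the DMSO-S0 libraries than to its own replicates, and the spread within dTAG-S0 was 13.1% of the mean against 3.26% in DMSO-S0.

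**Figure D2:**
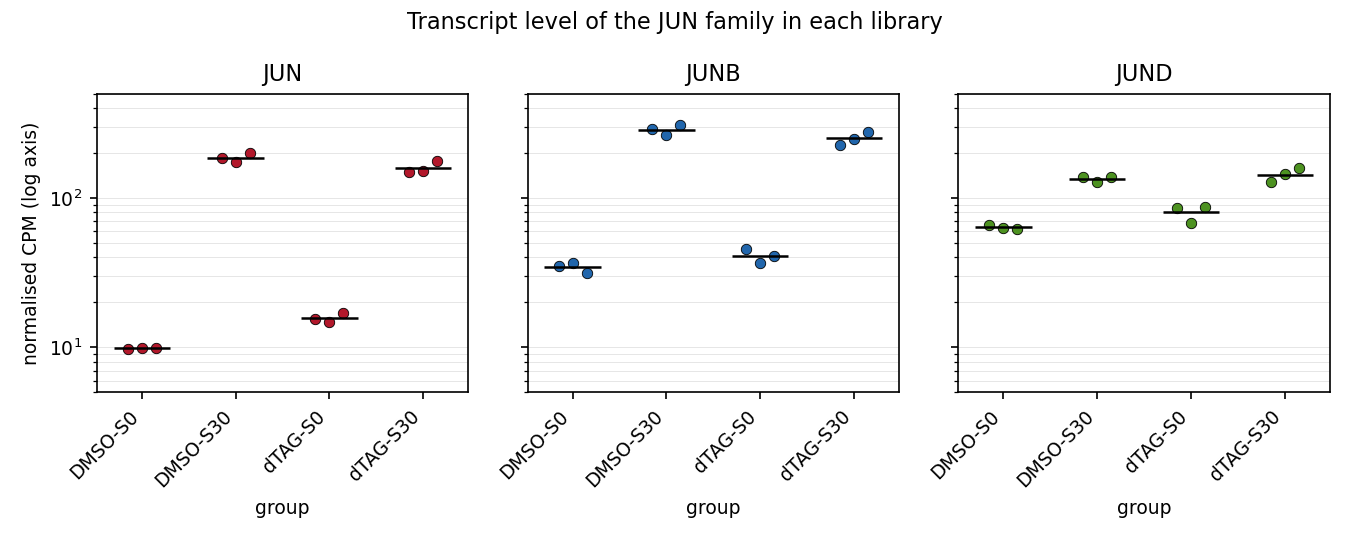
Normalised CPM of JUN, JUNB and JUND on a log axis, with 1 point per library, ordered as replicates 1 to 3, and a bar at the group mean. JUN rises from about 9.84 to 186 CPM in DMSO and from 15.8 to 159 CPM in dTAG, while the 4 groups of JUND lie between 62.0 and 157 CPM.

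Serum raised all 3 members in DMSO-treated cells. Of the 13093 genes tested, 1198 (9.15%) were called higher and 2222 (17%) lower at an adjusted p under 0.05, so the 3 of 3 is read against 9.15%. JUN rose by a log2 fold change of 4.26 ± 0.09 (SE; 95% interval 4.08 to 4.44), which is 19.2-fold and the 25th largest of all genes (edgeR adjusted p = 1.73e-23). JUNB rose by 3.08 ± 0.09 (2.90 to 3.26), 8.45-fold and the 48th largest (adjusted p = 1.44e-20). JUND rose by 1.10 ± 0.08 (0.93 to 1.26), 2.14-fold and the 255th largest (adjusted p = 4.01e-11). The intervals of the 3 members do not meet, so the order JUN, JUNB, JUND is wider than their errors. The 3 rises passed the threshold under every scaling tried, but the balance of all calls did not hold: TMM scaling gave 1690 higher and 1059 lower, and ERCC library sizes 1175 and 591.

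The same order held in dTAG-treated cells, where 1184 genes (9.04%) were called higher and 2000 (15.3%) lower, and where TMM scaling gave 1584 and 978 and ERCC library sizes 1029 and 617. JUN rose by 3.32 ± 0.08 (3.15 to 3.48; 9.97-fold; adjusted p = 7.19e-22). JUNB rose by 2.60 ± 0.08 (2.44 to 2.77; 6.08-fold; adjusted p = 2.42e-19), and JUND by 0.82 ± 0.08 (0.66 to 0.99; 1.77-fold; adjusted p = 6.43e-09). Each of these values is smaller than its counterpart in DMSO-treated cells.

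Whether the serum response differed between the treatments was tested as the interaction, the log2 serum effect in dTAG minus that in DMSO. No gene (0%) was called higher and 5 genes (0.0382%) were called lower in edgeR, while 405 had an unadjusted p under 0.05 and DESeq2 called 11. JUN was 1 of the 5, with a log2 difference of -0.94 ± 0.12 (-1.20 to -0.69; adjusted p = 0.000382), and it passed in each of 9 other fits and with each of the 12 libraries left out. JUNB had -0.48 ± 0.12 (-0.72 to -0.23) and JUND -0.27 ± 0.12 (-0.51 to -0.03), with adjusted p of 0.402 and 1, so neither passed in edgeR. The JUND value ran from -0.40 without dTAG-S0 replicate 2 to -0.16 without dTAG-S30 replicate 1. Among the alternatives, JUNB passed only when no genes were filtered on low counts (adjusted p = 0.000888) and without dTAG-S30 replicate 3 (adjusted p = 0.0275). The JUNB value weakened to -0.37 without dTAG-S30 replicate 1 (adjusted p = 0.755).

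The JUN interaction equals the dTAG log2 fold change of JUN with serum minus that without serum. Without serum, where 111 genes (0.848%) were called higher with dTAG and 57 (0.435%) lower, JUN was higher by 0.69 ± 0.10 (0.49 to 0.90; 1.62-fold; adjusted p = 0.000122). With serum, where 77 genes (0.588%) were called higher and 82 (0.626%) lower, its log2 fold change was -0.25 ± 0.07 (-0.39 to -0.10), which did not pass (adjusted p = 0.0964). On the linear scale, serum added 176 ± 7.92 CPM (SE) of JUN in DMSO and 143 ± 8.98 CPM in dTAG. The other members also gained less in dTAG, JUNB 253 ± 12.8 CPM in DMSO and 210 ± 14.2 in dTAG. For JUND these were 70.6 ± 3.44 and 63.0 ± 10.7 CPM. The JUN difference between treatments with serum did pass with 2 spike-in factors (adjusted p = 0.0478), in the 6 libraries alone (0.0335) and without the count filter (0.00488). It also passed with any of 7 single libraries left out (0.00406 to 0.0414, the lowest without dTAG-S30 replicate 3). Among the settings where it did not pass, the adjusted p reached 0.476 with ERCC library sizes and 0.479 without DMSO-S30 replicate 3. It was 0.283 without dTAG-S30 replicate 2 and 0.24 without dTAG-S30 replicate 1, so the call depends on the setting and on single libraries.

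JUND was higher with dTAG in the absence of serum, by 0.34 ± 0.08 (0.17 to 0.51; 1.27-fold; edgeR adjusted p = 0.0290). This call was lost with ERCC library sizes (0.0604), without dTAG-S0 replicate 1 (0.114) and without dTAG-S0 replicate 3 (0.0743). JUNB had 0.27 ± 0.09 (0.09 to 0.44) in the same comparison and did not pass (adjusted p = 0.171). Among the alternatives it passed only without dTAG-S0 replicate 2 (0.0322) and without the count filter (0.0237). With serum, JUNB had -0.21 ± 0.08 (-0.37 to -0.05; adjusted p = 0.252) and JUND 0.07 ± 0.08 (-0.09 to 0.23; adjusted p = 0.826), which ran from 0.00663 without DMSO-S30 replicate 2 to 0.17 without dTAG-S30 replicate 1. Only without the count filter and without dTAG-S30 replicate 3 did JUNB pass here (0.0268 and 0.0435). The comparisons share their libraries in pairs, and the interaction is computed from all 4 groups, so these values are not independent of one another.

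**Figure D3:**
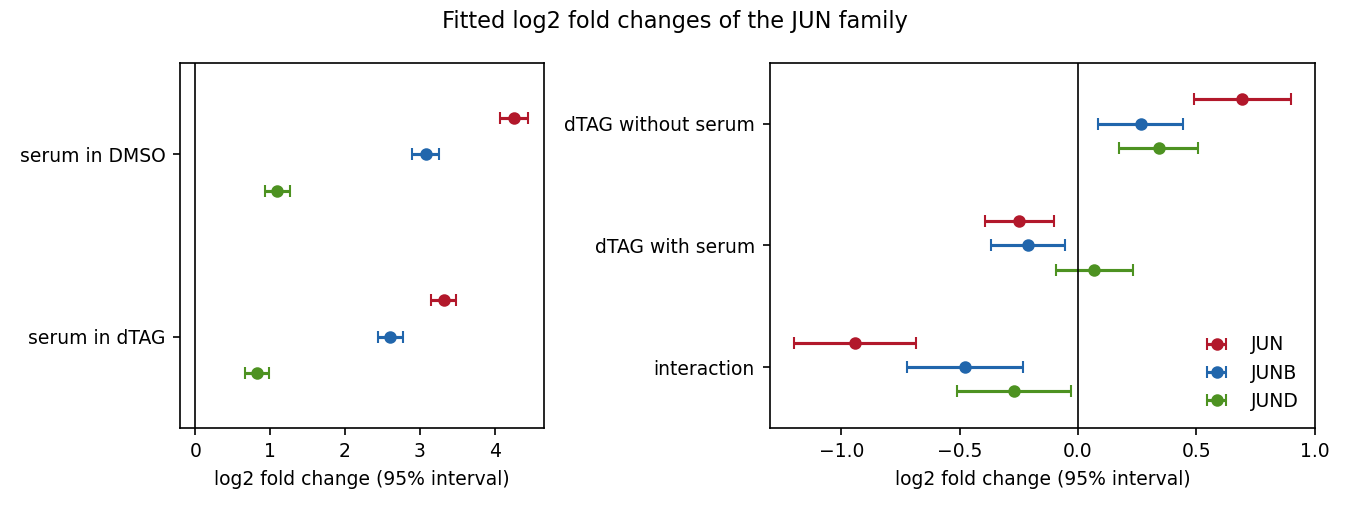
Fitted log2 fold changes of JUN, JUNB and JUND with 95% intervals, the serum effects on the left and, on an expanded axis, dTAG over DMSO and the interaction on the right. The serum intervals of the 3 genes stand apart in both treatments, and for the interaction JUN lies lowest, at -0.94.

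The make-up of the family was compared per gene length, as CPM per kb of the length in the table, since the JUN model is longer than those of JUNB and JUND. In DMSO-S0 the order was JUND at 34.2 ± 1.12 (SD, n = 3), JUNB at 18.8 ± 1.35 and JUN at 2.78 ± 0.04 CPM per kb. In DMSO-S30 it was JUNB at 158 ± 12.1, JUND at 72.1 ± 2.99 and JUN at 52.6 ± 3.87. The dTAG groups had the same orders, with JUND 43.0 ± 5.62, JUNB 22.5 ± 2.31 and JUN 4.46 ± 0.33 without serum, and JUNB 138 ± 13.3, JUND 76.8 ± 8.15 and JUN 44.9 ± 4.38 with serum. Neighbours in each order did not overlap between libraries, so serum exchanged the first place from JUND to JUNB in both treatments.

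The summed level was 55.9 ± 2.14 CPM per kb in DMSO-S0 and 282 ± 18.7 in DMSO-S30, a 5.06-fold ratio, and 69.9 ± 7.88 in dTAG-S0 and 259 ± 25.3 in dTAG-S30, a 3.71-fold ratio. The groups with and without serum did not overlap in either treatment, and the exact two-sided permutation test gave p = 0.1, the smallest that 3 libraries against 3 allow, so none of the 16 such tests of the sum and the shares could pass 0.05. The sum in dTAG-S0 exceeded that in DMSO-S0 in all libraries (log2 ratio 0.32, exact p = 0.1), and with serum the treatments overlapped (log2 ratio -0.12, exact p = 0.3; -0.198 without dTAG-S30 replicate 3, -0.0760 without DMSO-S30 replicate 3 and -0.0567 without dTAG-S30 replicate 1).

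JUN made up 4.78%, 4.95% and 5.21% of the sum in DMSO-S0 and, once serum was given, 18.4%, 18.6% and 18.9%. With dTAG its share was 5.77%, 6.89% and 6.56% before serum and 17.95%, 16.5% and 17.5% after it. The share was thus higher with dTAG in all libraries without serum, by 1.43 percentage points, and lower in all libraries with serum, by 1.30 points (exact p = 0.1 for each). These shares are ratios within a library, so they do not depend on how libraries were scaled. Of the sum without serum, JUNB held 33.7% ± 1.38 with DMSO and 32.2% ± 1.47 with dTAG, and with serum it held 55.8% ± 0.62 and 53.1% ± 0.17. JUND held 61.3% ± 1.30 and 61.4% ± 1.49 without serum, and 25.6% ± 0.81 in DMSO-S30 against 29.6% ± 0.58 in dTAG-S30, again with no overlap (difference of 4.0 points, exact p = 0.1). Averaged over both serum levels with 400 assignments within them, dTAG minus DMSO was -2.08 points for JUNB (exact permutation p = 0.02), 2.02 points for JUND (p = 0.05) and 0.07 points for JUN (p = 0.905). Adjusted over these 3 and the summed level these are 0.08, 0.1 and 0.905, and the 3 shares sum to the whole and are not independent. The JUN average joins opposite differences, 1.43 points without serum and -1.30 with it, so it cannot show either. That of JUND joins 0.04 points without serum and 4.0 with it.

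**Figure D4:**
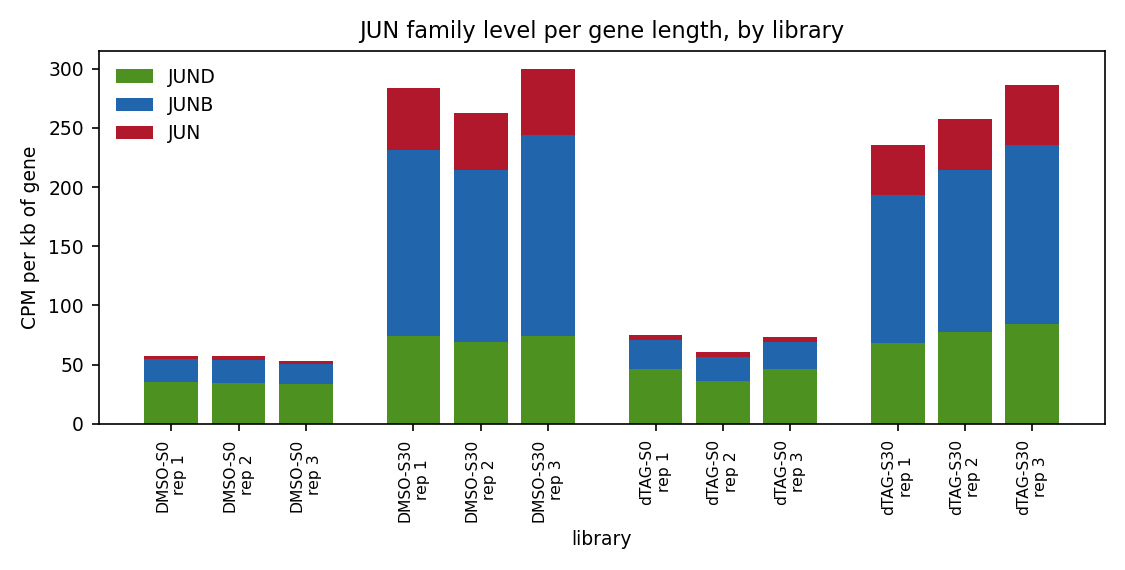
Summed level of JUND, JUNB and JUN in each of the 12 libraries, as CPM per kb of gene, stacked from 0. JUND is the tallest part in all libraries without serum and JUNB in all libraries with serum, and the bars with serum reach 235 to 300.2.

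Genes whose level followed each member most closely over the 12 libraries were ranked by Pearson's r on log2 CPM. The points share their libraries and fall into groups with and without serum, so a high r mostly reflects the serum contrast and is given as a description. For JUN the 5 highest were DUSP8 (r = 0.998), a phosphatase that acts on MAP kinases, ITPRIP (0.998), DSTN (0.998), an actin-severing protein, NUAK2 (0.997), a kinase, and AREG (0.997), a ligand of the EGF receptor. JUNB came 7th for JUN (0.996) and JUND 277th (0.972). DUSP8, picked for its r over these same libraries, had log2 fold changes of 3.15 and 2.46 with serum in DMSO and in dTAG, and 0.59 and -0.10 with dTAG without and with serum.

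For JUNB the 5 highest were IER2 (0.998), DUSP1 (0.998), DUSP2 (0.998), DUSP5 (0.997) and IER3 (0.997), which are 2 immediate early response genes and 3 dual-specificity phosphatases. For JUND they were PRPF4 (0.991), a splicing factor, ZBTB21 (0.991), SLC16A3 (0.989), a lactate transporter, FOXC1 (0.989), a forkhead factor, and ACTB (0.988), a cytoskeletal actin. By distance between centred group means, which also compares the size of the response, the nearest genes were SIK1, DUSP5 and ASB2 for JUN (0.16, 0.18 and 0.21 on the log2 scale). MAFF, FOSL1 and ANGPTL4 were nearest to JUNB (0.03, 0.06 and 0.06), and NFIL3, ENSG00000282034 and SPATA2L to JUND (0.04, 0.04 and 0.04). FOSL1 is itself a dimer partner of the JUN proteins, and MAFF and NFIL3 are basic leucine zipper factors.

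Among 12 genes for dimer partners, 11 were tested, BATF having at most 1 count per library. Serum raised 7 of them in DMSO and 7 in dTAG, where 9.15% and 9.04% of all genes were called higher, and lowered 1 in each (17% and 15.3% of all genes), with median log2 fold changes of 0.85 and 0.55 against -0.07 and -0.06 over all genes tested. The largest rises were those of FOS (from 5.48 ± 0.82 to 485 ± 43.9 CPM in DMSO and from 4.92 ± 0.25 to 391 ± 16.9 in dTAG), FOSB (4.92 ± 0.22 to 422 ± 24.0 and 4.36 ± 0.26 to 359 ± 15.4) and ATF3 (15.6 ± 1.12 to 1041 ± 61.0 and 19.1 ± 1.12 to 783 ± 58.2). In log2 terms these were 6.48, 6.41 and 6.06 in DMSO and 6.31, 6.37 and 5.36 in dTAG (SE 0.08 to 0.10), which exceed the 4.26 and 3.32 of JUN.

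With dTAG, no partner was called without serum, where 0.848% of all genes were called higher and 0.435% lower. With serum 2 of 11 were called lower (0.626% of all genes), ATF3 at -0.41 ± 0.07 (adjusted p = 0.000854) and FOS at -0.32 ± 0.07 (adjusted p = 0.0173). ATF3 was also called in the interaction, at -0.70 ± 0.12 (adjusted p = 0.00586), and FOS was not, at -0.17 ± 0.15 (adjusted p = 1). The FOS call with serum was lost without dTAG-S30 replicate 1 (adjusted p = 0.0947) and with ERCC library sizes (0.0516), which also ended the ATF3 interaction call (0.0522). The median of the 11 with serum was -0.11, against -0.000406 for all genes tested. ATF3 had 0.29 ± 0.09 without serum (adjusted p = 0.134), the same sign as JUN, and FOS and FOSB had -0.15 ± 0.13 and -0.18 ± 0.12 there, also short of the threshold (0.727 and 0.613).

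**Figure D5:**
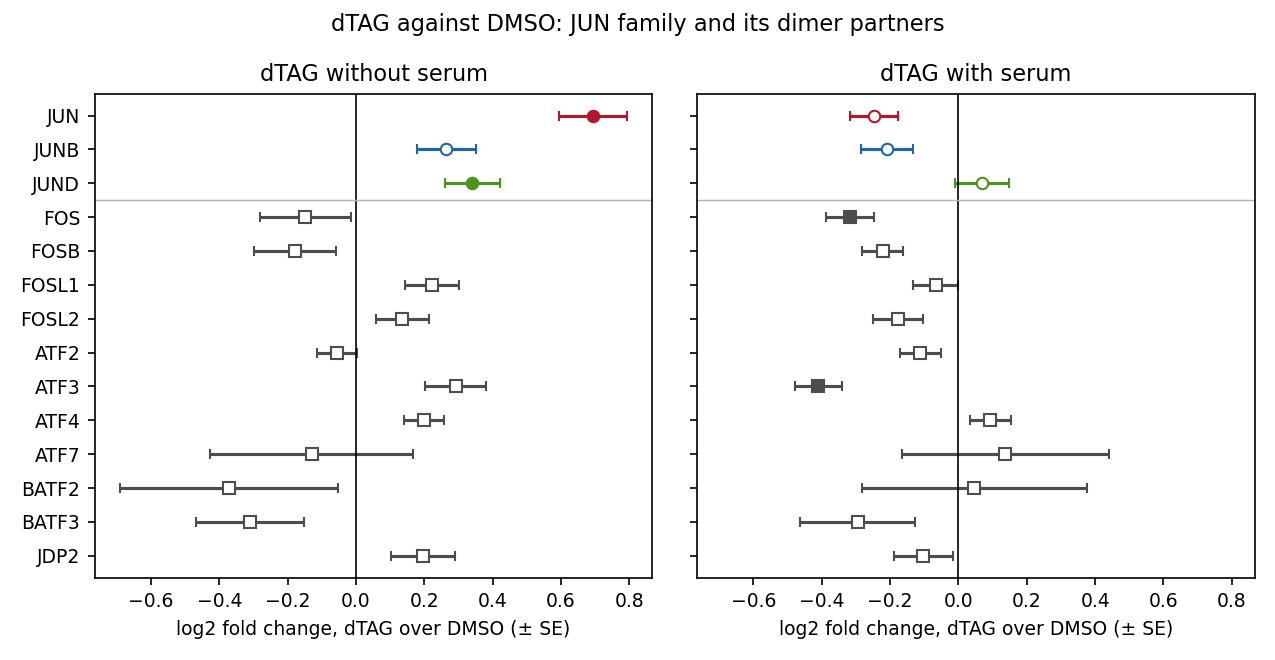
Log2 fold changes of dTAG over DMSO with standard errors, without serum on the left and with serum on the right, for JUN, JUNB and JUND (circles) and 11 dimer partners (squares); filled symbols passed the threshold. JUN and JUND pass without serum, and FOS and ATF3 pass with serum.

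Of 14 genes of the JNK cascade, which runs from MAP3 kinases through MAP2K4 and MAP2K7 to the JNKs that phosphorylate JUN, 2 rose and 2 fell with serum in each treatment, and 0 were called with dTAG or in the interaction in edgeR. Of all genes, 9.15% and 9.04% were called higher with serum and 17% and 15.3% lower. For dTAG against DMSO, 0.848% were higher and 0.435% lower without serum, and 0.588% and 0.626% with it. In the interaction 0.0382% were lower, so 0 of 14 lies near these shares. SPAG9, a scaffold of the cascade, rose by 0.61 ± 0.06 in DMSO and 0.53 ± 0.05 in dTAG (adjusted p of 2.36e-09 and 1.76e-08). MAP3K11 rose by 0.32 ± 0.08 in DMSO (adjusted p = 0.00271). MAP3K1 fell by 0.25 on the log2 scale in DMSO (adjusted p = 0.0152) and by 0.29 in dTAG (adjusted p = 0.00562), and MAP3K7 fell by 0.21 in dTAG (adjusted p = 0.00837). All 3 of these falls were lost with ERCC library sizes (adjusted p of 0.299, 0.0636 and 0.2). That of MAP3K1 in DMSO and that of MAP3K7 were also lost under TMM scaling (0.0953 and 0.0717) and in DESeq2 (0.0938 and 0.0539), and the first with filterByExpr (0.0666) and without DMSO-S30 replicate 3 (0.0693). The medians of the 14 were -0.04 and -0.05, near those of all genes.

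Of 10 genes whose products degrade or bind JUN proteins, such as the ubiquitin ligase subunits FBXW7 and COP1, the signalosome subunit COPS5, and menin (MEN1), a partner of JUND, 0 were called in any of the 5 comparisons in edgeR. For all genes the shares called higher and lower with serum were 9.15% and 17% in DMSO, and 9.04% and 15.3% in dTAG. For dTAG against DMSO they were 0.848% and 0.435% without serum and 0.588% and 0.626% with it. In the interaction they were 0% and 0.0382%, so outside the serum comparisons 0 of 10 lies near these shares. Among 13 factors known to act on promoters of this kind, serum raised 7 in DMSO and 4 in dTAG, with medians of 0.17 and 0.14 against -0.07 and -0.06 over all genes tested, of which 9.15% and 9.04% were called higher. Of these 13, 0 were called with dTAG or in the interaction, which again lies near the shares of all genes. SRF, which binds the CArG box, rose from 31.8 ± 2.49 to 211 ± 16.8 CPM in DMSO and from 34.3 ± 1.62 to 198 ± 11.3 in dTAG (log2 2.73 ± 0.08 and 2.53 ± 0.07; adjusted p of 1.11e-20 and 2.87e-20). MEF2D rose by 1.69 ± 0.07 in each (adjusted p of 4.64e-16 and 3.65e-16), and ETS2 by 0.90 ± 0.06 and 1.03 ± 0.06 (3.38e-12 and 1.28e-13).

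Of 24 genes described as AP-1 targets, 17 were tested, and the other 7, which include 6 matrix metalloproteinases and IL6, had at most 8 counts in any library. Serum raised 10 of the 17 in each treatment (9.15% and 9.04% of all genes) and lowered 1 in DMSO (17%), with medians of 0.96 and 0.83 against -0.07 and -0.06. PTGS2, the inducible cyclooxygenase, rose by 4.14 ± 0.21 in DMSO and 3.33 ± 0.22 in dTAG (adjusted p of 9.45e-15 and 2.34e-12), from a level of 0.55 CPM in either treatment. CXCL8, a chemokine, rose by 3.74 ± 0.12 in DMSO (8.29e-19), and AREG by 2.51 ± 0.07 and 2.15 ± 0.06 (3.52e-21 and 4.99e-20).

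Without serum, 5 of the 17 targets were higher with dTAG and 0 lower in edgeR, where 0.848% and 0.435% of all genes were called. The median of the 17 was 0.20 against -0.01 over all genes. CXCL8 was higher by 1.69 ± 0.14 (adjusted p = 3.01e-08), from 2.83 ± 0.54 to 8.77 ± 1.37 CPM, HMOX1, which degrades haem, by 0.74 ± 0.14 (0.00565), and PLAUR, the urokinase receptor, by 0.57 ± 0.12 (0.00882). With serum, 0.588% of all genes were called higher and 0.626% lower. Of the targets, VEGFA was higher there by 0.32 ± 0.07 (0.0223) and PTGS2 lower at -0.80 (0.00294). The VEGFA call was lost with ERCC library sizes (0.149) and with replicate 2 left out of DMSO-S30 (0.251) or of dTAG-S30 (0.0619). CXCL8 was the only target called in the interaction, at -1.75 ± 0.17 (3.15e-06), where 0.0382% of all genes were called lower. Its levels with serum were 35.5 ± 1.23 CPM in DMSO and 36.1 ± 3.77 in dTAG. With serum the 2 treatments overlapped for CXCL8 (log2 fold change -0.06 ± 0.09, adjusted p = 0.88).

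The genes nearest to each member were also examined. Beside JUN, MYSM1, FGGY and HOOK1 were not called in any comparison. Beside JUNB, GET3 was not called in any comparison, BEST2 and THSD8 had at most 2 and 5 counts, and PRDX2 is listed at 0. Beside JUND, LSM4 and PGPEP1 were not called and ENSG00000284797 is listed at 0. IQCN, 5250 bases beyond the 3′ end of JUND on the same strand, rose with serum by 0.83 in DMSO and 1.17 in dTAG (adjusted p of 8.26e-06 and 2.12e-08) beside 1.10 and 0.82 for JUND. The larger value of IQCN was in dTAG and that of JUND in DMSO, and likeness between them was not tested.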

How the data were processed

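RNA-Seq was done on 12 libraries in 4 groups of 3, ribosomal RNA removed and ERCC RNA added. Per the labels and methods, the authors trimmed reads (Trim Galore 0.6.4, FastQC 0.11.8), mapped them to hg38 with STAR, and counted them with featureCounts (Subread 1.6.3) over whole protein-coding genes, introns included. What the authors deposited are unnormalised read counts, with no molecular identifiers to tell duplicates from separate molecules. Overlap and strand settings are not given in the sources used here. Columns were matched to samples by name. The titles of the starved samples hold both a 0 and a 30, and their columns a short code, so which libraries had no serum was read from these together with the study's methods.

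Here, genes reaching 10 counts in 6 or more libraries were kept (13093 of 19901 genes and 69 of 92 ERCC RNAs). Counts were scaled by upper quartile over genes, 1 factor was taken from the ERCC counts by the RUVg algorithm, and all 4 groups were fitted together in edgeR 4.0.16 (R 4.3.3) with the two-sided quasi-likelihood F-test and Benjamini-Hochberg adjustment over all genes. A gene is called at an adjusted p under 0.05. The study used the likelihood ratio test, which is an alternative here, as are DESeq2 1.42.0, other scalings, filters and factors, a replicate block and leaving out each library. The procedure was checked on simulated counts. The log2 CPM used for correlations had a prior count of 2. Summed levels and shares were tested by exact two-sided permutation over libraries.

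The genes named are the members, TRIM28, per member the 5 genes with the highest r and the 3 at the smallest distance, up to 3 called genes of largest change per list and comparison, and the 2 nearest genes on each side; some items that this rule names are not reported here. Members and lists were chosen with earlier results of these data known. Symbols were found for 19802 genes. Promoters came from RefSeq (GRCh38.p14) for all 3 members, and 35116 windows of 250 bases were searched.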

Additional observations from a re-analysis of the deposited data

Results flagged for a closer look

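The serum response of 3 of the genes described above differed between DMSO-treated and dTAG-treated cells by the test of the interaction in edgeR. For JUN the serum effect in dTAG minus that in DMSO was -0.94 on the log2 scale (adjusted p = 0.000382), with every dTAG-S0 library above every DMSO-S0 library. For ATF3 it was -0.70 (adjusted p = 0.00586), with the dTAG-S30 and DMSO-S30 libraries not overlapping, and for CXCL8 it was -1.75 (adjusted p = 3.15e-06), with the groups apart without serum and overlapping with it. No group had 4 or more libraries, so single libraries could not be tested for standing apart.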

How the results depend on the processing

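All alternatives were tried one at a time. Of 327 values of the 15 member results, 307 kept their direction and their side of the threshold and 0 turned, among them every serum effect and both JUN results, without serum and in the interaction. JUN with dTAG and serum passed at -0.25 with 2 spike-in factors, -0.24 without the count filter, -0.24 in the 6 libraries only and -0.24 with the replicate block, and ranged from -0.33 to -0.18 with single libraries left out, passing in 7 of 12 (without any DMSO-S0 library, DMSO-S30 replicate 2, dTAG-S0 replicate 1 or 3, or dTAG-S30 replicate 3). Without the count filter JUNB also passed, at 0.26 and -0.20 with dTAG without and with serum and at -0.46 in the interaction. Its ranges with single libraries left out were 0.17 to 0.35, -0.30 to -0.12 and -0.57 to -0.37, passing in 1 of 12 each. JUND with dTAG and no serum was lost at 0.36 with ERCC library sizes, and ranged from 0.26 to 0.46. Of 116 values of the summed level and shares, 114 kept their direction, and the JUND share without serum moved between -0.734 and 0.751 percentage points, turning without DMSO-S0 replicate 2 or dTAG-S0 replicate 3. The cause of these changes was not tested.

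For TRIM28, leaving out libraries gave -0.107 to 0.00183 without serum and -0.0924 to 0.0325 with serum, and -0.0555 to 0.0995 in the interaction. Of the other named genes, calls were lost for MAP3K1, MAP3K7, FOS, VEGFA and ATF3, and 6 of the 15 losses came with ERCC library sizes. That setting lowered the calls of all genes to 1766 and 1646 with serum and to 76 and 66 with dTAG, whereas the likelihood ratio test gave 283 and 266 and no count filter 275 and 406 with dTAG. With 1 library left out, dTAG calls ran from 111 (dTAG-S0 replicate 3) to 299 (dTAG-S30 replicate 3) without serum and from 95 (DMSO-S30 replicate 2) to 258 (DMSO-S0 replicate 1) with it. The 5 calls in the interaction became 3 (ERCC library sizes) to 29 (no count filter). With Spearman's rho, 2, 0 and 1 of the 5 genes most like JUN, JUNB and JUND were named again. By that measure JUN and JUNB were each other's closest gene (rho = 0.986).

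Replicate numbers did not pair the libraries: deviations of same-numbered libraries correlated at -0.15 to 0.10. With the number as a replicate block, JUN passed with dTAG and serum (-0.24, adjusted p = 0.0441), no other member call changed, and 3500, 3247, 173, 166 and 7 genes were called. The counts of JUN in DMSO-S0, 183 to 217, set its precision before serum, and intervals cover counting error and library spread only.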
